A study of Capra hircus with 12 samples.

Results

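Milk protein transcripts took up very different shares of the 12 libraries, and 9 of the libraries were sorted by that share into a milk-rich and a milk-poor set. The share was the percent of all counts in CSN1S1, CSN1S2, CSN2, CSN3, LALBA, PAEP, GLYCAM1, LTF and LPO. The 4 milk-rich libraries (40% or more) were high-dose replicate 2 and middle-dose replicates 1, 2 and 4. The 5 milk-poor libraries (under 10%) were high-dose replicates 1 and 3, low-dose replicates 1 and 2 and middle-dose replicate 3. High-dose replicate 4 and low-dose replicates 3 and 4 fell in between and entered neither set. The sets were made from measured values and are not groups of the study. Every comparison below therefore describes how other genes differed between libraries chosen by their milk protein share, and none tests the glucose dose.

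Milk is made by secretory epithelial cells that line the alveoli of the gland. Prolactin, acting through STAT5 with ELF5 and glucocorticoid receptor, turns on casein and whey protein genes, and the same cells assemble lactose in the Golgi and milk fat on the endoplasmic reticulum. Lipid droplets leave the cell wrapped in plasma membrane by way of butyrophilin and xanthine dehydrogenase. Myoepithelial cells around the alveoli contract to eject milk, and fibroblasts, endothelial cells and leukocytes fill the stroma. In a biopsy, fewer cells of a type and less RNA per cell cannot be told apart.

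The tissue was mammary gland biopsied from lactating female dairy goats after glucose infusion into the gland, with 4 libraries each at a low, a middle and a high dose. The amounts of glucose behind these names are not stated in the labels, and uninfused gland was not analysed here. Whether each library of a dose is a different goat is not stated either, so a p-value reflects only how much these samples vary, and that variation may be technical. Set and dose partly overlapped: 3 of the 4 middle-dose libraries, 1 of the 4 high-dose libraries and 0 of the 4 low-dose libraries were milk-rich.

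Total counts per library were 9555072 to 11771785 in the milk-rich set and 9965761 to 12716883 in the milk-poor set, and did not differ by an exact two-sided permutation test (p = 0.556, smallest possible 0.0159). The reads left once the 9 genes were set aside numbered 3919423 to 5966988 in the milk-rich and 9623221 to 11765160 in the milk-poor libraries, a gap that the rule itself produces, so other genes rest on fewer reads in milk-rich libraries. After thinning of each library to 3919423 such reads, 14245.8 ± 91.6 genes (SD, n = 4) had at least 1 read in the milk-rich libraries. In the milk-poor libraries it was 14677.8 ± 206 (n = 5; exact two-sided permutation test, p = 0.0317). The adjusted p was 0.0476 over 3 such tests: total counts, reads outside the 9 genes and genes detected. The rule fixed the outcome of the second in advance, so this adjusted p is lower than the other tests alone would give. It is under 0.05 only with that test counted. The 14360 genes of high-dose replicate 3 lay below the 14364 of high-dose replicate 2, so the sets overlapped. With at least 5 reads required in place of 1, the difference was 366.8 genes fewer in the milk-rich libraries (exact permutation p = 0.0635). The p at 1 read was above 0.05 when any 1 library other than high-dose replicate 2 or 3 was left out.

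The milk protein genes themselves are described first, with no test, because they chose the sets. The share of the 9 genes was 42.1% in high-dose replicate 2 and 52.0%, 57.7% and 59.0% in middle-dose replicates 1, 2 and 4. It was 7.48% and 8.83% in high-dose replicates 1 and 3, 2.61% and 2.18% in low-dose replicates 1 and 2, and 3.44% in middle-dose replicate 3. The nearest library above the milk-poor limit held 12.3% and the nearest below the milk-rich limit held 21.3%. The widest interval of any share, a 95% Wilson interval for counting error only, was 58.9% to 59.0% in middle-dose replicate 4. Counting error was thus far smaller than the differences between libraries.

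Beta-casein (CSN2) alone took 23.4%, 27.5%, 31.7% and 33.3% of counts in the milk-rich libraries, in the order high-dose replicate 2, then middle-dose replicates 1, 2 and 4. It took 2.91%, 4.53%, 0.918%, 0.820% and 1.42% in the milk-poor libraries, in the order high-dose replicates 1 and 3, low-dose replicates 1 and 2 and middle-dose replicate 3. The same 2 orders are used for every list of 4 and 5 values below. LALBA, the alpha-lactalbumin subunit of lactose synthase, took 2.07%, 3.23%, 2.81% and 3.66% against 0.0819%, 0.214%, 0.00789%, 0.0220% and 0.109%. PAEP, the whey protein beta-lactoglobulin, took 4.62%, 4.46%, 4.32% and 4.21% against 1.88%, 1.53%, 0.820%, 1.06% and 1.16%. These ranges did not overlap for CSN2, LALBA or PAEP.

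The mixture of milk proteins differed as well as the amount. PAEP made up 7.13% to 10.98% of the reads of the 9 genes in the milk-rich libraries and 17.3% to 48.9% in the milk-poor libraries, and in low-dose replicate 2 it exceeded CSN2 (48.9% against 37.7%). The casein CSN1S2 made up 11.4% to 12.7% of those reads in the milk-rich and 1.23% to 4.97% in the milk-poor libraries. LALBA made up 4.87% to 6.21% and 0.302% to 3.18%. LTF, the iron-binding defence protein lactoferrin, did not follow the others: it took 0.113%, 0.0159%, 0.0355% and 0.0139% of counts in milk-rich libraries and 0.442%, 0.0331%, 0.185%, 0.0146% and 0.0267% in milk-poor libraries, with overlap. In the 3 libraries in between LTF took 1.03% in high-dose replicate 4, 1.05% in low-dose replicate 3 and 0.148% in low-dose replicate 4. CSN1S1 is annotated in these tables as a short piece of the gene, so its counts cover only a fragment.

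**Figure D1:**
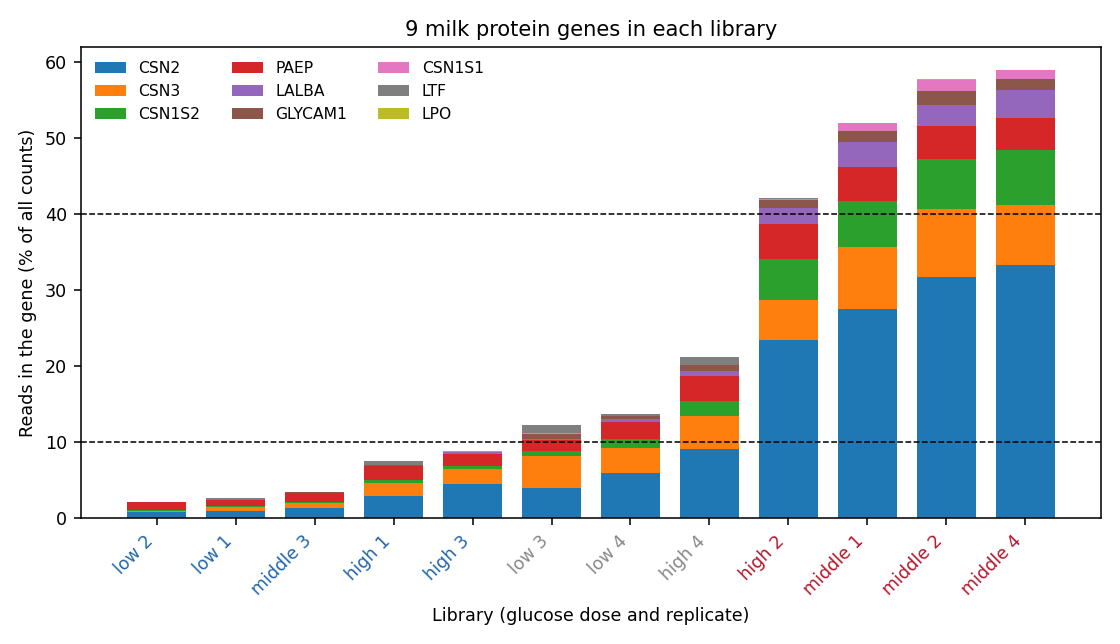
Percent of all counts in each of the 9 milk protein genes (stacked bars, vertical axis) in each of the 12 libraries (horizontal axis, sorted by the sum and coloured by set). Dashed lines mark the limits of 10% and 40%; CSN2 is the largest part of each milk-rich bar, and the 4 milk-rich bars reach 42.1% to 59.0%.

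With the 9 genes removed, 13468 other genes had enough reads to test. Values per gene are CPM, the usual depth-scaled count unit, taken over the remaining reads after scaling for library composition (TMM), so they already allow for the room that milk transcripts take up. Differences are log2 of milk-rich over milk-poor with a standard error (SE), and a gene was called where the adjusted p of edgeR's quasi-likelihood test was at most 0.05. There were 1345 genes called higher in the milk-rich libraries (9.99% of those tested) and 1424 called lower (10.6%), together 20.6%. Among all genes tested, 9.24% had every milk-rich value above every milk-poor value and 9.90% had every one below. The median difference was 0.95 among genes called higher and -1.22 among those called lower, and 97 of the former and 158 of the latter differed at least 8-fold.

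With dose as a further term, 333 genes were called higher (2.47%) and 515 lower (3.82%), and all 1345 and 1424 kept their direction. The low dose held no milk-rich library, so this fit took the set difference from the middle-dose and high-dose libraries alone. It rests on fewer libraries, and a call lost with dose as a term does not by itself show a smaller difference. When libraries were scaled by size alone, the median of all genes moved from -0.04 to -0.22 and the split became 897 higher and 2224 lower. Leaving out middle-dose replicate 4, 2 or 1 reduced the total of 2769 calls to 1563, 1807 or 1834. The first principal component of the 9 libraries held 52.6% of the variance and separated the sets. High-dose replicate 3 stood apart from the other 8 on the second (15.9%).

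**Figure D2:**
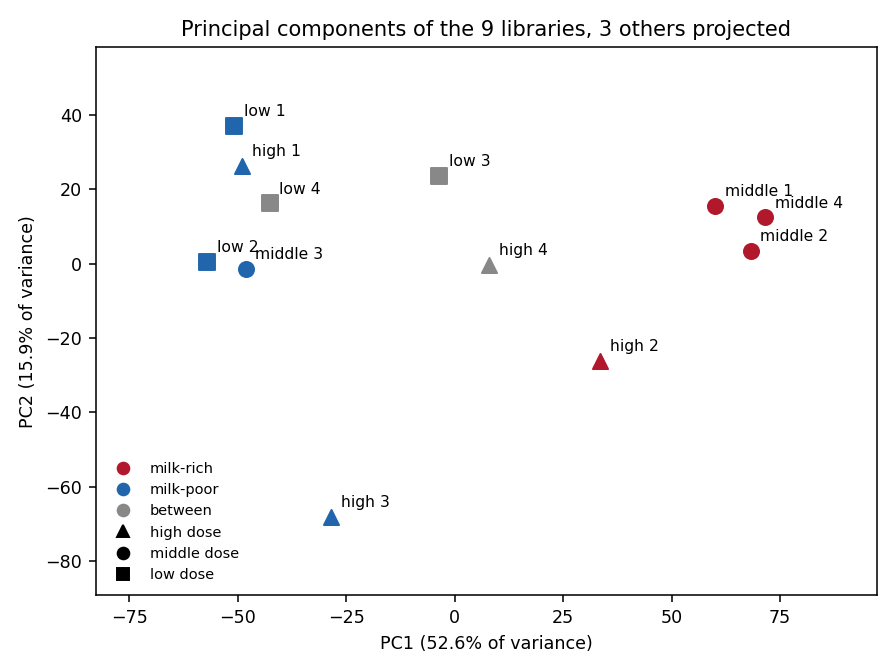
First and second principal component of log2 CPM over the 13468 genes, fitted to the 9 milk-rich and milk-poor libraries, with the 3 libraries in between projected onto them; colour gives the set and shape the dose. The milk-rich libraries lie to the right, high-dose replicate 3 lies lowest, and low-dose replicate 4 lies among the milk-poor libraries.

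Genes of the cell division cycle were much lower in the milk-rich libraries. Of 27 tested, 26 were called lower and 0 higher, with a median log2 difference of -3.30 beside -0.04 over all genes. MKI67, the proliferation antigen Ki-67, was at 6.42, 2.64, 3.78 and 3.88 CPM in the milk-rich and 168, 113, 75.7, 109 and 86.0 CPM in the milk-poor libraries. That is a 26.0-fold lower mean in the milk-rich set (log2 -4.70, SE 0.33, adjusted p = 6.24e-05). TOP2A, the topoisomerase that untangles DNA before mitosis, was at 9.37, 6.96, 7.56 and 4.43 CPM against 219, 158, 96.4, 174 and 147 CPM (log2 -4.47, SE 0.29, adjusted p = 6.24e-05). CDK1, the kinase that drives entry into mitosis, was at 2.07 to 4.69 CPM against 40.9 to 82.6 CPM. For each of these 3 genes the lowest milk-poor library was several times above the highest milk-rich library.

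Some genes for DNA replication gave smaller values: the replication helicase subunit MCM6 gave log2 -2.06 (SE 0.18), MCM7 -0.90 (SE 0.22) and MCM5 -1.16 (SE 0.35), and the last 2 overlapped between sets. MCM7 lost its call without middle-dose replicate 2 or 4, and MCM5 without high-dose replicate 1 or 2, low-dose replicate 2 or middle-dose replicate 2 or 4. CDC45 alone was not called (log2 -0.66, SE 0.26). With dose as a term, 21 of the 27 were still called lower. The summed level of the list was 227 to 287 CPM in the milk-rich and 942 to 1741 CPM in the milk-poor libraries.

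Milk fat genes were higher in the milk-rich libraries. Of 17 genes for triglyceride assembly and the fat globule, 10 were called higher and 0 lower, with a median log2 difference of 1.60. BTN1A1, the butyrophilin of the fat globule membrane, was at 10762, 12896, 21185 and 17204 CPM in the milk-rich and 377, 1054, 23.7, 49.1 and 152 CPM in the milk-poor libraries (log2 5.55, SE 1.01, adjusted p = 0.004). The milk-poor libraries themselves spanned a wide range for BTN1A1, with high-dose replicate 3 highest and low-dose replicate 1 lowest. XDH, its xanthine dehydrogenase partner, was at 7174, 8172, 10174 and 11744 CPM against 3149, 3831, 1688, 2863 and 3390 CPM, a 3.12-fold higher mean (log2 1.64, SE 0.26, adjusted p = 0.00212). With dose as a term, the adjusted p for XDH was 0.0512.

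LPIN1, the phosphatidate phosphatase that makes diacylglycerol, was at 618, 476, 935 and 570 CPM against 27.0, 43.3, 38.9, 14.4 and 14.3 CPM (log2 4.56, SE 0.39, adjusted p = 8.79e-05). CIDEA, a lipid droplet protein, was at 596 to 754 CPM against 7.61 to 138 CPM (log2 3.80, SE 0.69). The membrane mucins of the globule, MUC1 and MUC15, gave log2 3.34 (SE 0.33) and 3.06 (SE 0.25). MFGE8, a secreted glycoprotein of the globule, gave 2.17 (SE 0.45), which with dose as a term had an adjusted p of 0.0919. Within the list, genes of the globule membrane and of glycerolipid assembly were thus both among those called.

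Uptake and synthesis of fatty acids showed 11 genes called higher and 3 lower of 24, with a median of 0.85 (with dose as a term 6 and 3, median 0.90). LPL, the lipase that frees fatty acids from blood lipoproteins, was at 3472, 2281, 3768 and 3067 CPM in the milk-rich and 82.5, 69.6, 53.2, 132 and 147 CPM in the milk-poor libraries, a 32.5-fold higher mean (log2 5.02, SE 0.34, adjusted p = 6.24e-05). The desaturase SCD1 was at 1480, 836, 3496 and 2089 CPM against 133, 171, 54.2, 61.9 and 105 CPM (log2 4.23, SE 0.47). ACACA, which commits acetyl-CoA to fatty acid synthesis, gave log2 2.28 (SE 0.23), and the fatty acid transporter CD36 gave 2.69 (SE 0.47, adjusted p with dose as a term 0.053). No milk-poor library reached the milk-rich range for any of these 4 genes.

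FASN, the synthase itself, was at 13187, 7772, 21649 and 12974 CPM against 1816, 7620, 1814, 3194 and 5454 CPM (log2 1.80, SE 0.47, adjusted p = 0.0218). The milk-poor high-dose replicate 3 came close to the milk-rich middle-dose replicate 1. The FASN call was lost without low-dose replicate 2, middle-dose replicate 2 or middle-dose replicate 4, and with dose as a term (adjusted p = 0.192). The 3 genes called lower were ACLY, which makes acetyl-CoA from citrate (43.7 to 75.5 CPM against 92.3 to 140 CPM, log2 -1.08, SE 0.20), the elongase ELOVL6 (10.2 to 44.96 CPM against 52.8 to 249 CPM, log2 -2.79, SE 0.56), and the lipogenic regulator THRSP (0.753 to 2.604 CPM against 7.51 to 15.3 CPM, log2 -2.75, SE 0.39). None of the 3 overlapped between sets, and each kept its call with dose as a term.

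All 21 genes of cholesterol synthesis had higher estimates in the milk-rich libraries, and 14 were called higher, with a median of 1.25. SC5D, the sterol desaturase, was at 213, 205, 342 and 299.7 CPM against 73.5, 83.3, 64.5, 62.3 and 64.3 CPM (log2 1.93, SE 0.18, adjusted p = 0.000137). INSIG1, which holds back the sterol sensor, was at 588, 76.0, 187 and 190 CPM against 14.7, 48.9, 8.04, 10.9 and 9.88 CPM (log2 3.82, SE 0.69). With dose as a term, 8 of the 21 genes were called higher, and the median was 1.41.

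In transport through the secretory pathway 7 of 29 genes were called higher and 0 lower (24.1% together, beside 9.99% higher and 10.6% lower over all genes). The median was 0.52, and 28 estimates were above 0. A fit with dose as a term called 2 higher, with a median of 0.39. SPCS1, a signal peptidase subunit, gave log2 1.21 (SE 0.16) and the vesicle protein RAB3D gave 1.02 (SE 0.17). The milk-poor set was not uniform here. Mean log2(CPM + 1) over the 29 genes was 7.86 to 8.01 in the milk-rich libraries, and 7.33, 8.02, 6.96, 7.203 and 7.46 in the milk-poor libraries, so high-dose replicate 3 sat at the milk-rich level while its milk protein share was 8.83%. Without high-dose replicate 3, 20 of the 29 were called higher, whereas leaving out any one of the other milk-poor libraries, or high-dose replicate 2, middle-dose replicate 2 or middle-dose replicate 4, gave 4.

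Chaperones of the endoplasmic reticulum had a median of -0.05, with 4 of 22 called higher and 0 lower (18.2% together, beside 20.6% of all genes). Among them were the stress sensor ERN1 (log2 1.12, SE 0.20) and SEL1L of the degradation machinery (1.04, SE 0.19). ERP29 and DNAJC3 were also called, but lost their calls in 2 and 6 of the fits with 1 library left out. The count of 4 was 7 without high-dose replicate 3 and 2 without middle-dose replicate 4, and 0 of 22 were called with dose as a term (adjusted p = 0.108 for ERN1). High-dose replicate 3 had the highest mean of this list of all 9 libraries, 8.20 against 7.23 to 7.86 in the milk-rich and 6.97 to 7.44 in the other milk-poor libraries. XBP1, the transcription factor of secretory capacity, was at 712, 305, 298 and 313 CPM in the milk-rich libraries and 207, 1468, 159, 191 and 271 CPM in the milk-poor libraries (log2 -0.17, SE 0.66, adjusted p = 0.878). Without high-dose replicate 3 the XBP1 difference was 0.96 and called.

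Of 20 genes of the integrated stress response, the ATF4 programme for amino acid supply, 10 were called higher and 0 lower, with a median of 1.10. With dose as a term the counts were 5 and 0, with a median of 1.26. PSAT1, of serine synthesis, was at 391, 748, 927 and 889 CPM against 117, 230, 86.1, 131 and 117 CPM (log2 2.44, SE 0.32, adjusted p = 0.00074). ASNS, asparagine synthetase, was at 70.5, 131, 238 and 153 CPM against 23.3, 41.0, 18.5, 20.5 and 14.9 CPM (log2 2.65, SE 0.37). ATF5, a transcription factor of this programme, gave log2 3.09 (SE 0.34). The median was 1.97 within the middle dose and 0.61 within the high dose, where high-dose replicate 2 was the lowest milk-rich library and high-dose replicate 3 the highest milk-poor one.

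Amino acid transporters split: 7 of 24 were called higher and 3 lower, with a median of 0.68 (with dose as a term 2 and 1, median 0.52). The 7 became 4 without middle-dose replicate 4, and the 3 became 1 without high-dose replicate 1, low-dose replicate 1 or middle-dose replicate 2 or 4. SLC1A1, a glutamate transporter, gave log2 2.20 (SE 0.30) and SLC38A3, a glutamine transporter, 2.23 (SE 0.32), while SLC38A1 of the same glutamine family gave -0.88 (SE 0.16). SLC7A5, the leucine exchanger, was at 203, 347, 475 and 476 CPM against 62.2, 203, 41.3, 30.5 and 25.5 CPM (log2 2.37, SE 0.58, adjusted p = 0.0174), and its call was lost without middle-dose replicate 4 and with dose as a term (adjusted p = 0.166). Of 20 aminoacyl-tRNA synthetases, 4 were called higher and 0 lower (20% together, beside 20.6% of all genes, median 0.58). That count was 12 without high-dose replicate 3, 2 without middle-dose replicate 2 or 4, and 0 with dose as a term. The cytosolic ribosomal proteins had a median of -0.32 with 0 of 51 called. With scaling by library size alone 16 of the 51 were called lower, and without high-dose replicate 1 or low-dose replicate 1 there were 2. In the edgeR fit 7 of the 51 were lower and 0 higher at an unadjusted p under 0.05, and DESeq2 called 1 lower and limma voom 10.

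Of 19 genes for lactose synthesis and glucose uptake, 1 was called higher and 5 lower, with a median of -0.24, beside 9.99% and 10.6% of all genes tested. The counts were 0 and 1 with dose as a term. The summed level went the other way from the median, at 4167 to 4464 CPM in the milk-rich and 1944 to 4001 CPM in the milk-poor libraries. Abundant genes weigh most in such a sum, whereas a median counts each gene alike. UGP2, which makes UDP-glucose, was at 1200, 1052, 1013 and 1073 CPM against 197, 855, 190, 235 and 295 CPM (log2 1.61, SE 0.42, adjusted p = 0.0224), a call lost without low-dose replicate 2 or middle-dose replicate 4 and with dose as a term (adjusted p = 0.107). The glucose transporter SLC2A1 was at 124, 104, 104 and 103 CPM against 44.2, 113, 31.5, 20.8 and 24.9 CPM (log2 1.21, SE 0.43, adjusted p = 0.073). B4GALT1, the catalytic subunit of lactose synthase, was at 1260, 1327, 1643 and 1312 CPM against 545, 1328, 341, 650 and 841 CPM (log2 0.90, SE 0.33, adjusted p = 0.075). In all 3 genes high-dose replicate 3 was the highest milk-poor library, and for SLC2A1 and B4GALT1 it lay within the milk-rich range. Without it, 5 of the 19 were called higher and 5 lower.

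Galactose kinase GALK1 (log2 -1.35, SE 0.24), GALT (-0.82, SE 0.18) and the hexokinase HK1 (-0.63, SE 0.15) were among the genes called lower, the last not without middle-dose replicate 1. The insulin-responsive hexokinase HK2 gave -1.86 (SE 0.50, adjusted p = 0.026), with overlap, and lost its call without middle-dose replicate 1, 2 or 4. In glycolysis 2 of 23 genes were called higher and 9 lower, with a median of -0.55. Enolase ENO1 was at 171 to 321 CPM against 416 to 447 CPM (log2 -0.92, SE 0.19), and PGAM1 at 35.0 to 65.9 CPM against 78.0 to 118 CPM (-1.05, SE 0.22). The regulator PFKFB4 went the other way, at 36.1 to 156 CPM against 10.96 to 28.5 CPM (log2 2.30, SE 0.39). The 9 calls lower became 2 without middle-dose replicate 2, 3 without middle-dose replicate 4, 4 without middle-dose replicate 1 and 3 with dose as a term.

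In the TCA cycle and its neighbours 2 of 25 genes were called higher and 2 lower (16% together, beside 20.6% of all genes, median 0.07). Those called higher were ACO1, the soluble aconitase of the cytosol (log2 1.998, SE 0.28), and PCK2, the mitochondrial carboxykinase (2.31, SE 0.37). In oxidative phosphorylation 3 of 31 were called higher (9.68%, median 0.24) and 0 lower, and with dose as a term 0. Each count moved by more than 1.5 times when single libraries were left out: the TCA count called higher reached 5 without high-dose replicate 3, and its count called lower was 0 without low-dose replicate 2 or middle-dose replicate 1 or 4. The oxidative phosphorylation count was 0 without middle-dose replicate 4, 1 without high-dose replicate 1, low-dose replicate 2 or middle-dose replicate 2, and 7 without high-dose replicate 3. With scaling by library size alone the TCA median was -0.07.

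In mineral transport 6 of 19 genes were called higher and 1 lower, with a median of 0.46. These counts were 1 and 1 with dose as a term, with a median of 0.42. SLC30A2, which loads zinc into milk vesicles, was at 43.7, 172, 145 and 138 CPM in the milk-rich and 1.06, 4.30, 0.637, 1.71 and 2.70 CPM in the milk-poor libraries (log2 5.93, SE 0.56, adjusted p = 0.000137). ATP2C2, a Golgi calcium pump, was at 632, 946, 1032 and 973 CPM against 37.9, 283, 23.1, 32.8 and 58.1 CPM (log2 3.36, SE 0.70, adjusted p = 0.00777, with dose as a term 0.0617). ATP2B1, a plasma membrane calcium pump, was lower at 113 to 176 CPM against 224 to 268 CPM (log2 -0.90, SE 0.16). ATP2B2, the calcium pump of the apical membrane, was at 25.7 to 89.3 CPM against 3.48 to 56.0 CPM and was not called (adjusted p = 0.23). The count of 6 was 9 without high-dose replicate 3, and 3 when high-dose replicate 1, low-dose replicate 1, low-dose replicate 2, middle-dose replicate 3 or middle-dose replicate 4 was left out.

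Among 14 genes of prolactin and STAT5 signalling, 5 were called higher and 0 lower, with a median of 0.47, and 0 were called with dose as a term (median 0.51) and 3 without middle-dose replicate 1 or 4. The receptor PRLR and the factor STAT5A were not among them: PRLR was at 1652, 1632, 1468 and 1716 CPM against 861, 2531, 915, 1225 and 1653 CPM (log2 0.17, SE 0.30, adjusted p = 0.72), and STAT5A gave -0.14 (SE 0.20, adjusted p = 0.66). ELF5, the alveolar transcription factor, was at 2894, 3863, 3759 and 4552 CPM against 978, 2872, 755, 1351 and 1540 CPM (log2 1.33, SE 0.35, adjusted p = 0.023). High-dose replicate 3 fell just under the lowest milk-rich library. The ELF5 call was lost without low-dose replicate 2 or middle-dose replicate 1, 2 or 4, and with dose as a term (adjusted p = 0.233). The receptors ERBB4 (log2 1.47, SE 0.31) and GHR (0.995, SE 0.22) and the glucocorticoid receptor NR3C1 (0.86, SE 0.19) were called higher.

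Markers of the epithelial layers did not all go one way. Among 14 luminal markers 2 were called higher and 4 lower (median -0.39), and 0 were called with dose as a term (median -0.42). Their summed level, in which abundant genes weigh most, went the other way. It was 3858 to 7629 CPM in the milk-rich and 2086 to 2826 CPM in the milk-poor libraries. PIGR, which carries antibody into milk, was at 2116, 3037, 5906 and 3739 CPM against 520, 930, 105, 294 and 883 CPM (log2 2.76, SE 0.56, adjusted p = 0.00715, with dose as a term 0.0542), and ESR1 gave 1.79 (SE 0.44). PROM1 (log2 -1.26, SE 0.32) and KRT7 (-1.18, SE 0.31) were called lower, but PROM1 not without middle-dose replicate 1, 2 or 4 and KRT7 not without low-dose replicate 2 or middle-dose replicate 1, 2 or 4. The 4 calls lower were 0 without middle-dose replicate 2 and 1 without middle-dose replicate 1 or 4, and 2 without low-dose replicate 1 or 2.

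Among 15 myoepithelial markers 6 were called higher and 4 lower (with dose as a term 2 and 2). The basal keratin KRT5 was at 468, 288, 318 and 230 CPM against 1801, 718, 976, 1212 and 867 CPM (log2 -1.77, SE 0.30, adjusted p = 0.00299). CDH3, the basal cadherin, gave -1.47 (SE 0.22), and TP63, the basal cell transcription factor, -1.04 (SE 0.22). KRT14, the keratin partner of KRT5, was also called lower (log2 -1.12, SE 0.34, with overlap), whereas the keratin KRT17 was called higher (0.74, SE 0.20). The other calls higher were genes of the contractile apparatus: calponin CNN1 was at 98.1 to 122 CPM against 30.1 to 69.7 CPM (log2 1.26, SE 0.26), and MYH11, ACTG2, TPM2 and MYLK gave 0.76, 1.23, 0.69 and 0.51. The calls of KRT14, KRT17 and these last 4 genes were fragile. With 1 library left out, KRT14 lost its call in 6 fits, KRT17 in 5 and the last 4 genes in 3 to 8. Scaling by library size alone left 1 of the 6 calls higher, and leaving out a single library left 2 (without middle-dose replicate 1, 2, 3 or 4) or 3 (without high-dose replicate 2, low-dose replicate 1 or low-dose replicate 2). Of 15 tight junction genes 26.7% were called, beside 20.6% of all genes. There were 2 called higher, led by occludin (OCLN, log2 0.78, SE 0.16), and 2 lower, CLDN8 and CLDN3. Both claudins lost their calls without middle-dose replicate 2, 3 or 4 or low-dose replicate 2, CLDN8 also without middle-dose replicate 1 and CLDN3 also without high-dose replicate 2.

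Endothelial genes were slightly but evenly higher. All 14 estimates were above 0 and 8 were called higher, with a median of 0.58. TEK, the angiopoietin receptor, was at 52.9, 52.7, 74.2 and 77.8 CPM against 32.1, 28.0, 33.0, 24.3 and 31.5 CPM (log2 1.11, SE 0.17, adjusted p = 0.00153). PECAM1, an adhesion protein of endothelial junctions, was at 336, 408, 403 and 451 CPM against 215, 270, 180, 173 and 205 CPM (log2 0.94, SE 0.16). The summed level was 1643 to 2453 CPM in the milk-rich and 1246 to 1424 CPM in the milk-poor libraries. With scaling by library size alone 5 were called and with dose as a term 2 (median 0.44), while the count was 4 without middle-dose replicate 2 and 5 without middle-dose replicate 4.

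Fibrillar matrix genes were lower. Of 22 fibroblast and matrix markers, 0 were called higher and 8 lower, with a median of -0.62. COL3A1, a collagen of the stroma, was at 999, 2642, 977 and 706 CPM against 5611, 5096, 3733, 4381 and 4920 CPM (log2 -1.83, SE 0.37, adjusted p = 0.00682). COL1A1 was at 715, 1742, 602 and 419 CPM against 3201, 1852, 2000, 2097 and 1849 CPM (log2 -1.34, SE 0.39, adjusted p = 0.0342). The COL1A1 call was lost with dose as a term (adjusted p = 0.175), and without any of the 9 libraries left out singly other than high-dose replicate 3 and middle-dose replicate 1. POSTN, a matrix protein of remodelling stroma, gave -2.60 (SE 0.49). The 8 genes called all encode collagens or other matrix proteins, while the fibroblast receptor PDGFRA was not called (log2 -0.38, SE 0.30). The count was 4 with dose as a term and, with log2 of the share as a covariate over all 12 libraries, 1. It was 4 without middle-dose replicate 4 and 5 without middle-dose replicate 2 or any 1 of high-dose replicates 1 and 2. The summed level was 5268 to 11402 CPM in the milk-rich and 13803 to 20886 CPM in the milk-poor libraries.

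Few leukocyte markers were called in either direction. The share called was 5.56% of T and NK cell, 15.4% of B and plasma cell, 12.5% of macrophage and 11.1% of neutrophil genes. Over all genes tested it was 20.6%. In T and NK cell genes 0 of 18 were called higher and 1 lower (summed level 137 to 300 CPM milk-rich, 160 to 399 CPM milk-poor), and in B and plasma cell genes 1 and 1 of 13 (431 to 738 CPM and 184 to 1164 CPM). Macrophage and antigen presentation genes gave 1 and 1 of 16 (1095 to 2116 CPM and 1584 to 2455 CPM), with CD14 called higher (log2 1.23, SE 0.18), and 6 called lower without high-dose replicate 2 and 4 without high-dose replicate 3. The macrophage list had a median of -0.42 with 14 of 16 estimates lower. Neutrophil genes gave 0 and 1 of 9 (43.5 to 74.0 CPM and 61.5 to 174 CPM), with a median of -1.43 and 8 of 9 estimates lower, and the median was -0.38 with dose as a term. The B cell gene FCRLA was at 1.91, 0.188, 0.472 and 0.00 CPM against 3.64, 20.4, 5.02, 14.1 and 31.7 CPM (log2 -4.36, SE 0.90). The B and plasma cell list as a whole did not share this direction: 8 of 13 estimates were higher, with a median of 0.18. IRF4 was the gene called higher, a call lost in 5 of the fits with 1 library left out. Adipocyte markers were sparse, with 5 genes reaching the filter and a summed level of 28.5 to 40.2 CPM and 19.7 to 46.4 CPM. The part that cell types with shifted markers play in the other differences was not tested.

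In mammary defence 4 of 12 genes were called higher and 1 lower (with dose as a term 2 and 0). Estimates were higher in 7 and lower in 5, with a median of 0.26. Mean log2(CPM + 1) of the list was 4.78 to 4.94 in milk-rich and 4.19 to 4.69 in milk-poor libraries. High-dose replicate 4 and low-dose replicates 3 and 4, in neither set, were above both ranges at 5.57, 5.36 and 5.07. The list thus did not follow the milk protein share over all 12 libraries. LCN2, lipocalin, was at 42.4, 64.0, 63.8 and 89.5 CPM against 12.1, 10.2, 6.61, 8.18 and 7.79 CPM (log2 2.85, SE 0.25, adjusted p = 8.79e-05). The pattern receptors TLR4 and TLR2 gave 1.26 (SE 0.25) and 1.12 (SE 0.22). Among 20 genes of involution, the regression of the gland after milking stops, 1 was called higher and 2 lower (15% together, beside 20.6% of all genes). The cathepsin CTSB was at 216 to 338 CPM against 420 to 730 CPM (log2 -1.17, SE 0.20), and the second was BAX, a promoter of cell death, which lost its call without high-dose replicate 1 or middle-dose replicate 1, 2 or 4. Of 18 interferon genes, RSAD2 alone was called (log2 1.21, SE 0.24), and its difference was -0.87 when the milk-poor limit was 15% and low-dose replicates 3 and 4 entered that set. Medians of the B cell, adipocyte and interferon lists were 0.18, 0.02 and 0.04, and -0.02, -0.19 and -0.13 with scaling by library size alone.

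**Figure D3:**
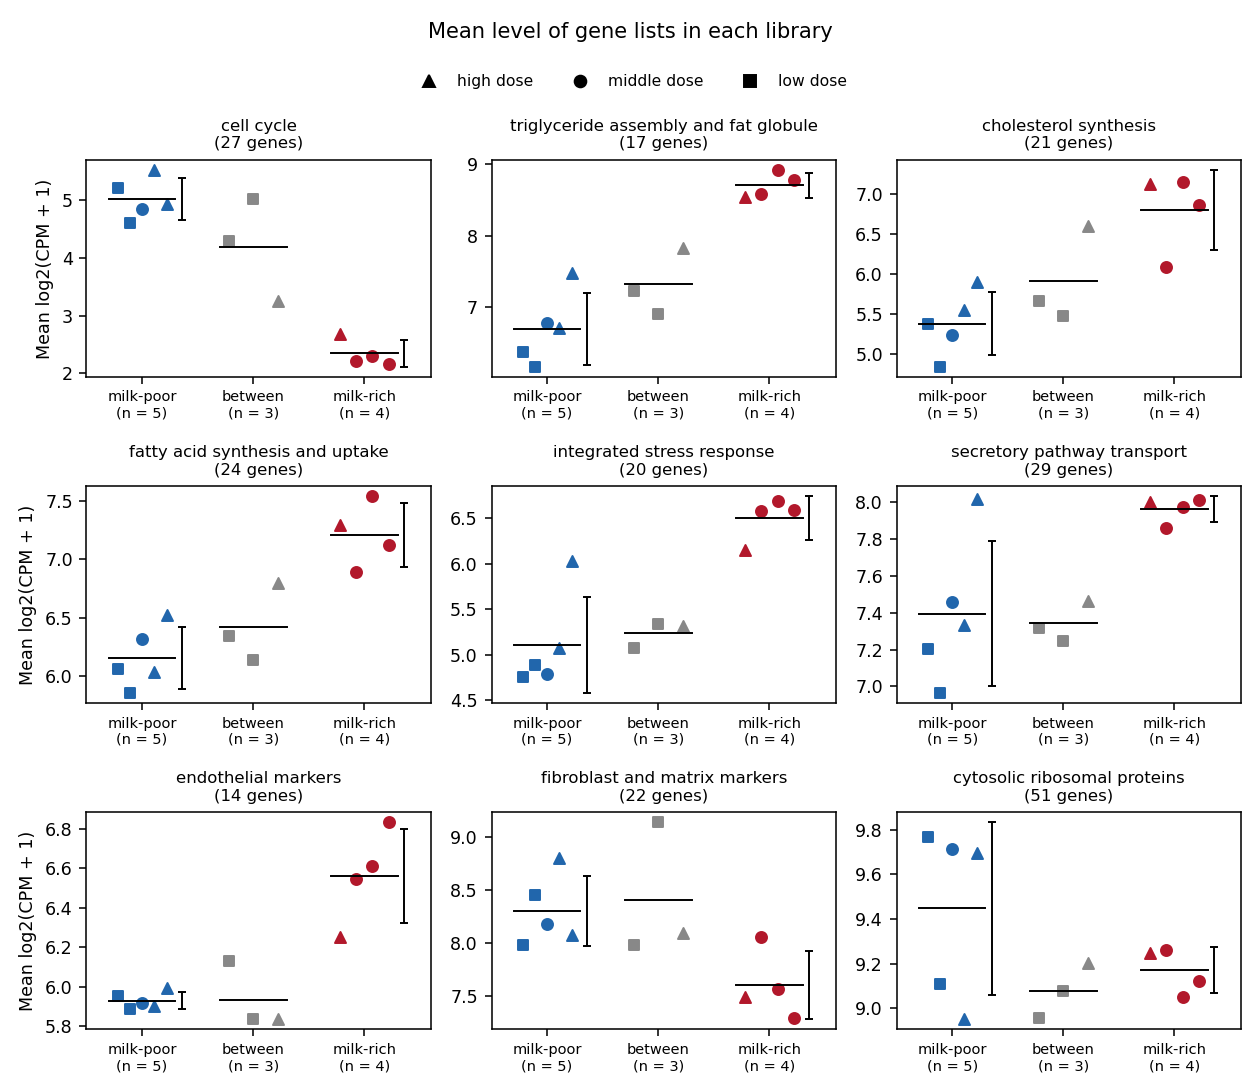
Mean log2(CPM + 1) of 9 gene lists (vertical axes) in each library, grouped as milk-poor, in between and milk-rich; points are libraries with shape for dose, horizontal lines are means, and bars beside the milk-poor and milk-rich points are SD. The cell cycle list lies at 2.17 to 2.69 in milk-rich and 4.59 to 5.52 in milk-poor libraries, and the triangle high up among the milk-poor libraries in the secretory pathway and stress response panels is high-dose replicate 3.

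The genes with the largest differences were chosen by the contrast itself and are given as descriptions. Among genes with a symbol, a mean log2 CPM of at least 3 and no overlap, the 12 largest increases were MEP1B, PNPLA3, RFX4, B3GALT1, DNAJC12, C9, MUCL1, C5, MRAP2, NRL, SLC30A2 and SFTPD. Several are better known from other organs. MEP1B, a meprin metalloprotease of kidney and gut, was at 20.1, 31.1, 93.5 and 41.5 CPM in the milk-rich libraries and at most 0.228 CPM in any milk-poor library. PNPLA3, a triglyceride-remodelling lipase, was at 57.6, 8.28, 35.0 and 57.6 CPM against 0.607 CPM in high-dose replicate 1 and no read in the other 4.

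DNAJC12, a co-chaperone, was at 359, 449, 1154 and 916 CPM against 22.2, 4.92, 4.46, 5.89 and 5.49 CPM. The terminal complement proteins C9 and C5 appeared together: C9 was at 357, 951, 514 and 1087 CPM against 29.4, 3.48, 4.06, 2.09 and 6.89 CPM, and C5 at 39.6 to 148 CPM against 0.0998 to 3.18 CPM. SFTPD, a collectin that binds microbes, was at 28.6 to 88.9 CPM against 0.319 to 2.30 CPM. RFX4, a transcription factor, ranged among milk-rich libraries from 10.2 to 256 CPM, lowest in high-dose replicate 2 and highest in middle-dose replicate 2. It was the one of the 24 genes whose call was lost with dose as a term (adjusted p = 0.0577). High-dose replicate 2 had the lowest milk-rich value in 10 of the 12.

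The 12 largest decreases were PLEKHS1, BIRC5, BPI, PLA1A, DLGAP5, KIF20A, KIF23, KIF4A, BUB1, DTL, ARHGAP11A and MKI67, several of them genes of mitosis. The survivin gene BIRC5, of the chromosomal passenger complex, was at 1.56, 0.00, 0.236 and 0.00 CPM against 46.3, 29.0, 21.5, 31.9 and 26.2 CPM. The mitotic motor KIF23 was at 0.376 to 1.56 CPM against 20.3 to 43.8 CPM. Others were not of the cell cycle: BPI, an antibacterial protein that binds endotoxin, was at 0.521, 2.07, 1.65 and 1.94 CPM against 94.8, 34.2, 48.6, 118 and 87.2 CPM. PLEKHS1 was at 0.277 to 1.91 CPM in the milk-rich libraries and at 156, 12.8, 81.6, 141 and 141 CPM in the milk-poor libraries, with high-dose replicate 3 far below the other 4. PLA1A, a phospholipase, was at 0.00 to 1.04 CPM against 8.36 to 24.5 CPM.

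**Figure D4:**
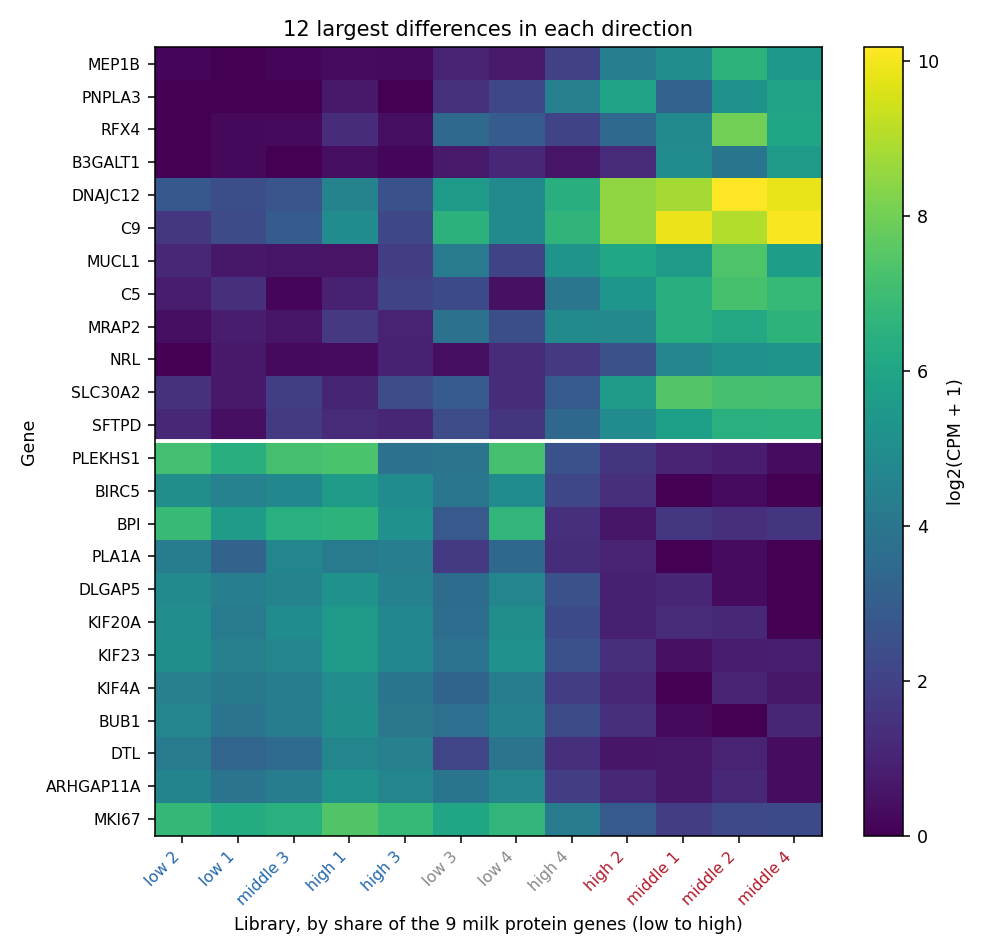
Heat map of log2(CPM + 1) for the 12 largest increases (above the white line) and 12 largest decreases (below it); columns are the 12 libraries ordered by milk protein share from low to high, with names coloured by set. Low-dose replicate 4 resembles the milk-poor columns in the lower block although its share, 13.7%, exceeds that of low-dose replicate 3.

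Both sets were present at the middle and at the high dose, so the difference could be taken at each dose without a shared library. Within the middle dose it was replicates 1, 2 and 4 minus replicate 3, and within the high dose replicate 2 minus replicates 1 and 3. With 1 library on one side at each dose, neither difference was tested alone. Of the 13468 genes, 70.2% had the same sign at both doses, and Pearson's r across genes was 0.672. Genes are not independent replicates, and the correlation is a description. Of the 1199 genes at least 1 log2 unit higher within the middle dose, 86.0% were also higher within the high dose, and of the 1503 at least 1 lower, 85.8% were also lower. The medians of these genes were 1.56 and -1.59 within the middle dose, which picked them, and 0.71 and -0.78 within the high dose.

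By list, the median difference within the middle and the high dose was -3.37 and -2.90 for the cell cycle, 1.38 and 1.38 for triglyceride assembly and the fat globule, 1.51 and 1.31 for cholesterol synthesis, and 0.76 and 0.40 for endothelial markers. Fibroblast and matrix markers gave -0.49 and -0.77. Macrophage markers gave -0.79 and 0.27, and neutrophil markers 0.23 and -1.44, so neither list kept one direction. For single genes the values lay close together in MKI67 (-4.57 and -4.37). They lay farther apart in INSIG1 (3.78 and 4.44) and LPL (4.34 and 5.51), and farthest of these 4 in SLC7A5 (4.06 and 0.85). A test of whether the set difference itself differed between the 2 doses, added after the data had been seen, called 0 of 13468 genes by edgeR (448 at an unadjusted p under 0.05). It rests on 7 libraries, and the lone library of a set at each dose is assumed to vary like the others, so a count of 0 does not show that the differences are equal.

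**Figure D5:**
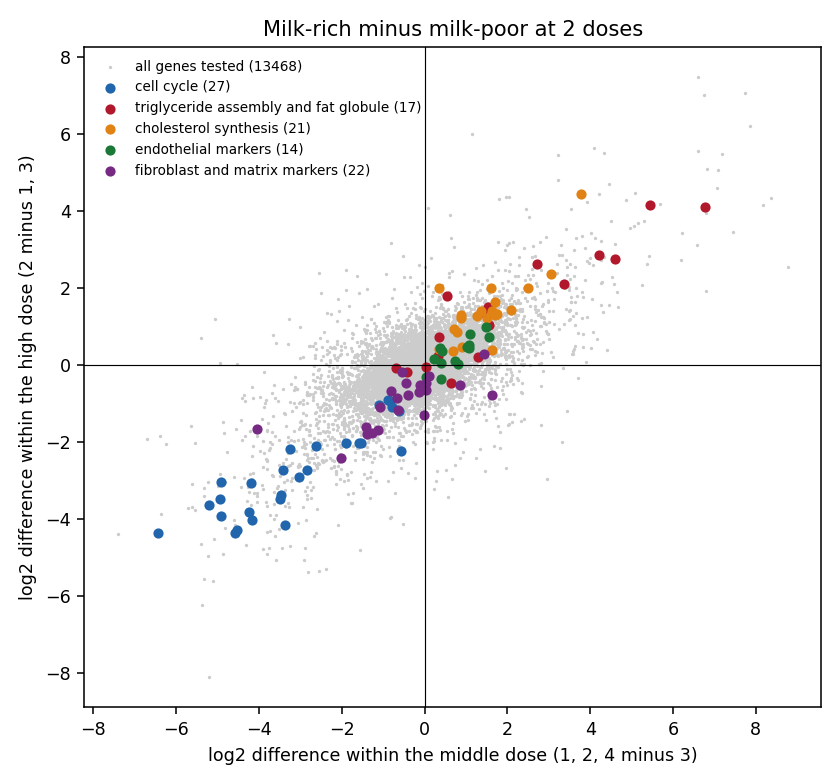
Difference in mean log2 CPM between milk-rich and milk-poor libraries within the middle dose (horizontal axis) and within the high dose (vertical axis); each point is a gene, with 5 gene lists coloured and all 13468 genes in grey. Cell cycle genes lie at the lower left and genes of milk fat and cholesterol mostly in the upper right.

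The 3 libraries in between were used for neither set, and their values were read on a scale where 0 is the milk-poor mean and 1 the milk-rich mean of each called gene. High-dose replicate 4, with a milk protein share of 21.3%, had a median place of 0.42 over the genes called higher and 0.55 over those called lower. Low-dose replicate 3, with 12.3%, was at 0.35 and 0.44. Low-dose replicate 4, with 13.7%, was at 0.03 and -0.04, which is the level of the milk-poor libraries. MKI67 followed this order, at 17.1 CPM in high-dose replicate 4, 61.8 CPM in low-dose replicate 3 and 102 CPM in low-dose replicate 4. LPL was at 923, 102 and 291 CPM in the same order, with low-dose replicate 3 inside the milk-poor range. COL3A1 reached 10930 CPM in low-dose replicate 4, above all 9 libraries of the sets. Milk protein share and the other genes therefore did not order these 3 libraries alike.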

How the data were processed

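Per the labels' protocols, Trizol RNA went into TruSeq libraries, 12 in all. Gene-level values deposited by the authors are raw read counts. Bowtie 0.12.2 and the mouse build mm8 appear in the submitters' processing notes, whereas the tables list goat genes. The counting program, its strand setting and the goat build were not given in the sources used here. Therefore overlapping or antisense genes cannot be told apart and positions are not printed. Tables came in 2 layouts (16030 genes in 4 libraries, 15991 in 8), and the 15810 shared genes were used. The reference for names (ARS1.2) matched 97.3% of gene IDs.

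The 9 milk protein genes were removed before library sizes and TMM, filterByExpr (minimum count 10, total 15) left 13468 genes, and edgeR 4.0.16 was fitted to the 9 libraries with set as the only factor (Benjamini-Hochberg, threshold 0.05, common biological coefficient of variation 0.304). Alternatives were scalings, filters, DESeq2 1.42.0, limma 3.58.1 voom, terms for dose, layout or replicate number, thinning, other limits, and each library left out. In simulated counts for this comparison (13353 genes), edgeR recovered 50.7% of genes altered 2-fold, 91.0% of those altered 4-fold and 100% of those altered 8-fold. No 2 libraries agreed within sampling noise (chi-square per degree of freedom at least 19.6 over 66 pairs). Pairing by replicate number was looked at across sets only. Correlations of deviations for same-numbered pairs were 0.02, 0.15, 0.00 and -0.08, within the -0.19 to 0.22 of the other pairs. So few pairs cannot exclude pairing.

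The sets, gene lists and members were chosen with earlier results of these data known. Genes are named as the 12 largest differences in each direction (mean log2 CPM of at least 3, no overlap), up to 4 members with the smallest p in each list, and 16 genes always read. A further 22 genes, and single values of MCM6 and PDGFRA, were chosen after their values were seen. Exact tests used scipy 1.17.1 and figures matplotlib 3.10.9, under Python 3.11.15 with numpy 2.4.6 and pandas 2.3.3. The models ran in R 4.3.3. Some single genes are not reported here.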

Additional observations from a re-analysis of the deposited data

Results flagged for a closer look

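In each set, the library farthest from the others was compared with the range of the set (Dixon's ratio of gap to range, 95% limit). Of 110 such comparisons 8 passed, and chance passes about 1 in 20. High-dose replicate 2 stood apart from the other 3 milk-rich libraries in the lactose and glucose uptake list (ratio 0.96), with a mean log2(CPM + 1) of 5.90 against 5.65 to 5.66. It did so also in luminal markers (ratio 0.961), at 6.36 against 6.06 to 6.07, and in SLC30A2 (ratio 0.837), at 5.48 against 7.12 to 7.43. Middle-dose replicate 2 was low in prolactin and STAT5 signalling (ratio 0.883), at 7.32 against 7.63 to 7.68.

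Among the milk-poor libraries, high-dose replicate 3 was high in the integrated stress response list (ratio 0.747), at 6.03 against 4.76 to 5.08, and low in PLEKHS1 (ratio 0.736), at 3.79 against 6.37 to 7.29. High-dose replicate 1 was high in DNAJC12 (ratio 0.839), at 4.54 against 2.45 to 2.79. It was also the one milk-poor library with reads of PNPLA3, at 0.684 against 0. The ratio is always 1 where all other values are 0, so this pass carries no weight. The mean of the macrophage list differed between sets by -0.48 within the middle dose and by 0.23 within the high dose, with every pair of libraries of a dose in that direction, a gap of 0.718 that was not tested.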

How the results depend on the processing

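Counts of genes called higher and lower were 2387 and 2348 with limma voom and 333 and 515 with dose as a term. They were 278 and 420 in the middle and high doses with dose as a term. In the libraries of the 15991-gene table layout alone they were 674 and 630 (the last 2 settings were chosen after seeing the data). With library size alone 2224 were lower. With a replicate block the counts were 686 and 601. Leaving out 1 library gave 772 to 1858 higher and 791 to 1949 lower. Medians of gene lists moved as follows. With voom they were 1.57 for the stress response, -0.31 for neutrophils and -3.92 for the cell cycle. With a replicate block they were 0.69 for prolactin signalling, 0.30 for the TCA cycle and -0.56 for neutrophils. With library size alone they were -0.72 for glycolysis, 0.41 for endothelium and 0.088 for defence. Both fits with dose as a term take the set difference from the middle and high doses, so they are not separate checks. Medians with dose as a term, first in all doses and then in the middle and high doses, were -0.44 and -0.44 for glycolysis, -0.012 and -0.013 for tight junctions, -0.51 and -0.52 for adipocytes, -0.13 and -0.14 for B cells and -0.38 and -0.35 for neutrophils. With the milk-poor limit at 15% and then at 40% they were 0.20 and 0.14 for myoepithelium, -0.10 and -0.11 for B cells, -0.069 and -0.28 for defence and -0.92 and -0.86 for interferon, and at 40% -0.45 for glycolysis. RSAD2 reversed to -0.87 and -0.77 at these limits. In the 15991-gene layout glycolysis gave -0.32. With log2 share as a covariate neutrophils gave -0.79 and the cell cycle -2.82. Leaving out 1 library gave -0.11 to 0.28 for the TCA cycle, -0.60 to -0.41 for glycolysis, -0.76 to -0.29 for macrophages, -1.69 to -0.65 for neutrophils and -3.61 to -2.97 for the cell cycle. XBP1 reversed to 0.96 without high-dose replicate 3. The gap in genes detected was -511.5 to -387 with 1 library left out and -366.8 at 5 reads. The cause of these shifts was not tested. Of 140 named genes called, 102 kept their call in every leave-out and 73 with dose as a term. Promoter motifs were not run. Other genes had 3919423 reads in the shallowest milk-rich library, which limits low genes most.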

Other observations

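Low-dose replicate 4, in neither set, had the highest interferon response of the 12 libraries. The mean log2(CPM + 1) of the 18 interferon genes was 6.95 there and 3.92 to 4.98 in the other 11. RSAD2, an antiviral enzyme, was at 162 CPM in it and at 6.53 to 27.6 CPM in the others. The same library had the most COL3A1, at 10930 CPM, and its BPI (102 CPM) and PLEKHS1 (143 CPM) lay within the milk-poor ranges.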
